A study of Mus musculus with 2 samples.

Results

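The mouse MHC class II genes are described here across the cell types of fractured femoral marrow. They were the 10 rows of the count tables whose gene symbol was H2-Aa, H2-Ab1, H2-Eb1, H2-DMa, H2-DMb1, H2-DMb2, H2-Oa, H2-Ob, Cd74 or Ciita, of 32285 genes in all, and the choice used no measured value. Single cells were taken from the femoral marrow, together with cells adhering to the implant, of osteoporotic mice with a fracture fixed by an intramedullary nail. One library came from the group given a magnesium nail (Mg), and the other from the group given the same metal with TAGelMA (Mg-TAGelMA). GelMA is gelatin methacryloyl, a hydrogel made from gelatin. What TA stands for is not given in the sources used here. Both groups carried magnesium and both were osteoporotic, so no uninjured, intact or implant-free marrow was among the samples. Strain, genotype, sex, age, time after surgery and the number of mice pooled are not given in the sources used here. Each nail had 1 library, so no test of the nails was possible, and every interval printed is a 95% interval that covers counting error only.

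MHC class II molecules present peptides from endocytosed protein to CD4 T cells. An α chain and a β chain form the peptide-binding molecule, and in the endoplasmic reticulum they are held by the invariant chain, which Cd74 encodes. In endosomes the H2-DM dimer exchanges the last invariant chain fragment for peptide, the H2-DO dimer restrains H2-DM, and Ciita, the class II transactivator, switches the whole set on. B cells, dendritic cells and some macrophages express the set all the time, while most other marrow cells do not.

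On mm10 (GENCODE vM21 gene models) 8 members lie in the H2 region of chr17. Ciita and Cd74 lie on other chromosomes. In order along chr17, H2-Oa spans 34092340 to 34095234, H2-DMa 34119541 to 34139101, H2-DMb2 34143307 to 34151555, H2-DMb1 34153072 to 34160230, H2-Ob 34238903 to 34254414, H2-Ab1 34257689 to 34269419, H2-Aa 34282744 to 34287823 and H2-Eb1 34305867 to 34316674. H2-Aa is on the minus strand and the other 7 are on the plus strand. Ciita spans 10480059 to 10528418 on the plus strand of chr16.

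Class II promoters are known for a shared X box, bound by RFX and CREB, followed by a Y box, bound by NF-Y, on which Ciita assembles. The RefSeq promoter table (GRCm38.p6, the build of mm10) held 7 of the 10 members. The 50-base windows below are shown because the results turn on how differently some of these neighbours were used by cell type. They read 5′ to 3′ on the gene's own strand, with the X box letters (AAC, any 2 bases, then ATGATG) and the Y box letters (GATTGG) in capitals.
H2-DMb1, chr17:34153093-34153142, plus strand: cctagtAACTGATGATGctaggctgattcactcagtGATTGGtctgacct
H2-DMb2, chr17:34145122-34145171, plus strand: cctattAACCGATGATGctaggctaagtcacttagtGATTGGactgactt
H2-Ob, chr17:34238811-34238860, plus strand: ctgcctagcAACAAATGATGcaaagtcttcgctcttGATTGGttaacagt
H2-Eb1, chr17:34305771-34305820, plus strand: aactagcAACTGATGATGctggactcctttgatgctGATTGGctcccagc
H2-Aa, chr17:34287859-34287908, minus strand: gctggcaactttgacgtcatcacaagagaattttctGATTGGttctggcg
H2-Oa, chr17:34092299-34092348, plus strand: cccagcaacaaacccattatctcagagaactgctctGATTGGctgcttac
H2-DMb1, H2-DMb2, H2-Ob and H2-Eb1 held both boxes, spaced by 19, 19, 16 and 18 bases. H2-Aa and H2-Oa held the Y box letters without the X box letters, and H2-DMa held a Y box only at the second of its 2 listed starts. The promoters of H2-Ab1, Cd74 and Ciita are named only. Searched on both strands, the X box letters were in 45 of 32851 promoters of this length (0.137%), the Y box letters in 5292 (16.1%), and X then Y in order, spaced by 10 to 40 bases, in 4 (0.0122%). The letters were chosen after these promoters had been read, so the counts describe the windows and support nothing, and a match shows letters, not binding.

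The libraries held 9466 (Mg) and 7591 (Mg-TAGelMA) cell barcodes with 58261391 and 79890998 unique molecular identifiers (UMIs, 1 per captured RNA molecule). After filters on detected genes, mitochondrial share and predicted doublets, 8122 and 7226 cells were kept, with a median of 3803.5 and 6744 UMIs. The libraries shared 21 barcodes, 19 of them kept, and clusters formed without the members were mostly of 1 library: the largest cluster had 1282 cells of Mg and 1 of Mg-TAGelMA. They also differed in the deposited software version, and the ribosomal-RNA-associated Gm42418 was at 72798 counts per 1000000 UMIs (CPM) in Mg and 1362 CPM in Mg-TAGelMA in mature B cells. Depth, software, library and nail cannot be told apart in this design.

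Cells were sorted into gates by marker genes, none of them a member, so a gate is a range of marker detection and not a cell type in itself. Most gates used a count of markers, while 2 B stages were split by single genes detected or not. The small pre-B gate asked for Rag1 or Rag2 without Ms4a1. The immature B gate asked for Ms4a1 and Ighm without Rag1, Rag2 or Ighd. Both allowed at most 2 mature B markers. The mature B gate required Ighd and at least 4 of 7 markers (among them Ighd, Fcer2a and Cr2) in a B lineage cell. Its cells held a median of 5 in both libraries. It took 1114 and 685 cells, of which 370 and 253 had exactly 4 markers, while 463 and 290 cells were 1 marker short. The conventional dendritic gate (87 and 71 cells) held a median of 5 of its 10 markers, and the classical monocyte gate (331 and 625 cells) 8 of 8. Cells of the conventional dendritic gate also held a median of 6 and 7 of the 8 classical monocyte markers.

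Class II RNA was highest in the mature B, conventional dendritic and macrophage gates in both libraries, in the last through a few cells. Summed over the 10 members, the conventional dendritic gate stood at 25544 CPM (25252 to 25838) in Mg and 18091 CPM (17834 to 18351) in Mg-TAGelMA. The mature B gate was at 17158 CPM (17035 to 17282) and 15031 CPM (14907 to 15157), and the macrophage gate at 18053 CPM (16931 to 19231, 26 cells) and 16021 CPM (15320 to 16745, 32 cells). These 3 gates headed the order of levels in both libraries, and in Mg the intervals of the macrophage and mature B gates overlapped. The macrophage level rested on 4 cells of Mg and 6 of Mg-TAGelMA with at least 100 member UMIs per 10000, which carried 96.5% and 86.5% of that gate's member UMIs. The median macrophage held 15 and 18.3 per 10000, against 202.7 and 169.0 in mature B cells, and 9 and 6 macrophages held none. All B gates together, 45.8% and 24.1% of kept cells, carried 65.2% and 59.0% of the member UMIs, while the conventional dendritic gate carried 17.7% and 13.6% from 1.07% and 0.98% of cells.

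A middle tier followed. The sum was 4369 and 6432 CPM in immature B cells, 4795 and 797.5 CPM in nonclassical monocytes, 3590.4 and 2103 CPM in plasma cells (10 and 37 cells), 3395 and 2848 CPM in plasmacytoid dendritic cells, and 3274 and 743 CPM in classical monocytes. Both monocyte gates changed tier between the libraries, which is described further on. Cells outside every gate (879 and 304) stood at 2634 and 2300.4 CPM, cells with markers of 2 lineages (108 and 116) at 1516 and 1161 CPM, and B cells of no stage (1220 and 615) at 3685 and 5268 CPM.

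The remaining gates were low. Droplets also pick up free RNA from lysed cells, and its part in these values was not tested. Erythroid cells, which should make no class II protein, were at 187 and 305 CPM, immature neutrophils at 222 and 254 CPM, and mature neutrophils at 519 and 295 CPM. Early granulocytes (175 and 289 CPM), T cells (286 and 291 CPM) and NK cells (208 and 269.9 CPM) were in the same range, and stem and progenitor cells were at 462 and 428 CPM. In Mg, 2 of 192 mature neutrophils carried 45.6% of that gate's member UMIs. With each cell thinned to 1000 UMIs, 16.5% of 814 and 15.1% of 119 erythroid cells still held a member UMI, against 97.6% of 1111 and 97.8% of 684 mature B cells. Without thinning the shares were 67.9% and 85.5% of erythroid cells (median 5578.5 and 33768 UMIs) and 99.8% and 99.9% of mature B cells (median 3284 and 4816 UMIs). All 10 members were higher in mature B cells than in mature neutrophils past a size rule, in both libraries. The rule asks for an interval of the CPM ratio wholly beyond 2-fold and at least 50 CPM on the higher side, and it was met in the same direction by 23.4% of genes measured in Mg and 43.5% in Mg-TAGelMA. In the heat map of members by gate, the classical α and β chains and Cd74 are bright in the 3 leading gates, while H2-DMb2 and H2-Ob are brightest in the mature B gate.

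**Figure D1:**
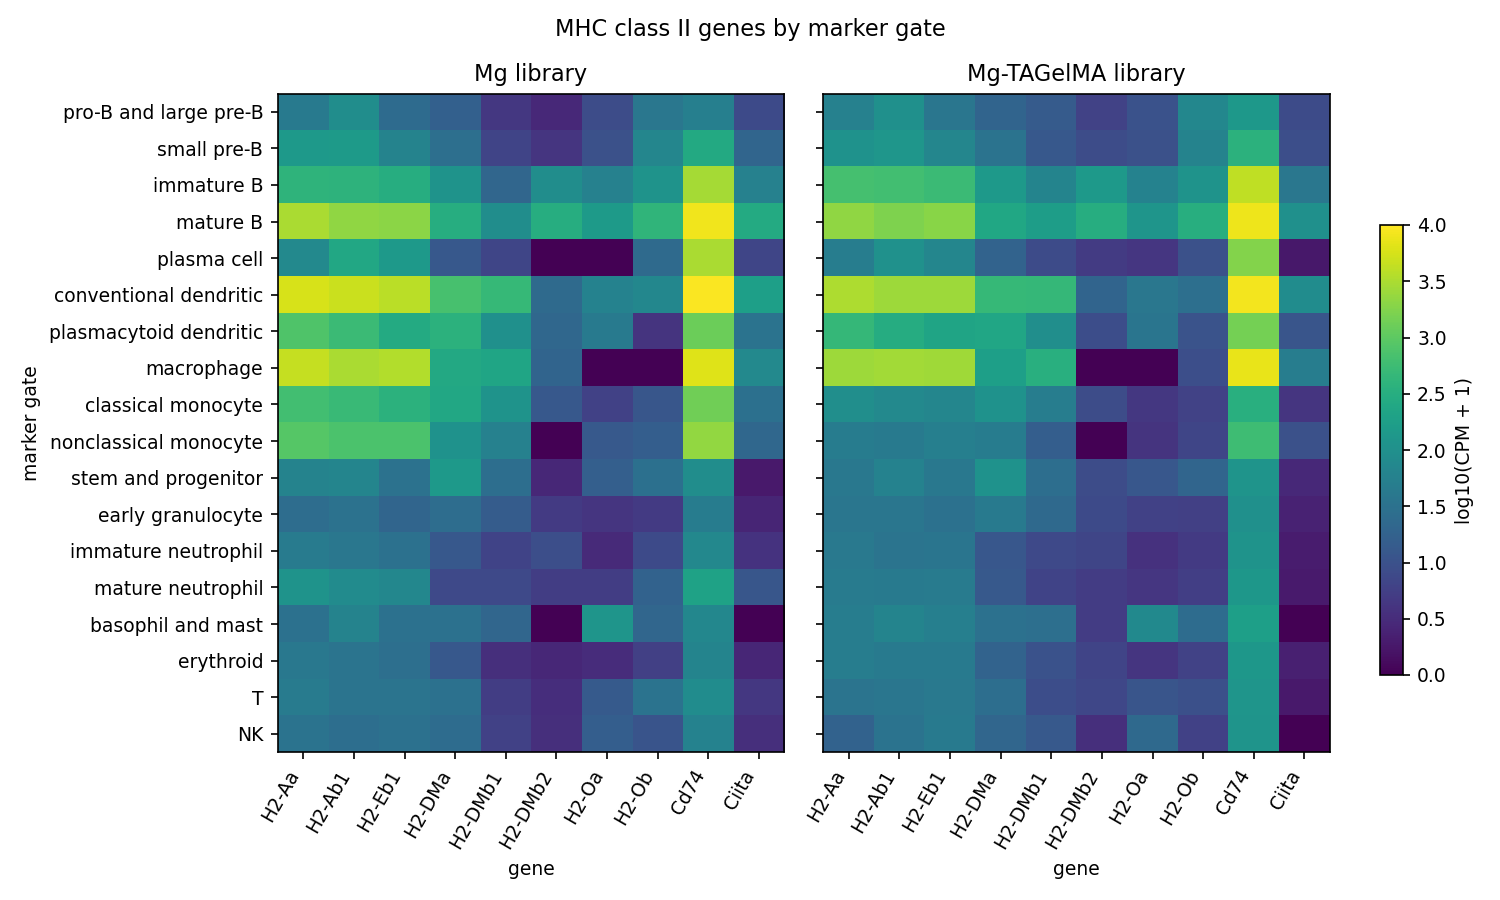
Heat maps of log10(CPM + 1) for the 10 members (columns) in 18 marker gates (rows), 1 panel per library. The summed members reach 25544 and 18091 CPM in the conventional dendritic gate and 187 and 305 CPM in the erythroid gate.

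Class II levels stepped up with each stage of B cell development. The pro-B and large pre-B gate, which takes cells with the surrogate light chain genes Igll1 and Vpreb1, stood at 284.6 CPM (267.7 to 302.3) in Mg and 453.0 CPM (411.8 to 497.3) in Mg-TAGelMA. Small pre-B cells were at 755 and 806 CPM, immature B cells at 4369 and 6432 CPM, and mature B cells at 17158 and 15031 CPM. From the first to the last of these stages the sum was 60.3-fold higher (56.7 to 64.1) in Mg and 33.2-fold higher (30.2 to 36.5) in Mg-TAGelMA. All 10 members were higher past the size rule in both libraries, against 12.3% and 7.58% of all genes measured. The members' median log2 ratio was 5.0 and 3.93, and that of all measured genes was -0.13 and -0.11. The immature B level rested in large part on a minority of cells. At least 100 member UMIs per 10000 were held by 46 of 312 cells in Mg and 32 of 105 in Mg-TAGelMA. These carried 49.3% and 67.0% of that gate's member UMIs, while the median cell held 27.4 and 49.2 per 10000. Whether mature B cells without detected Ighd entered this gate was not tested.

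At the first stage itself H2-Aa and Cd74 lay close to the erythroid and neutrophil gates. At a median depth of 14495 and 9413.5 UMIs per cell, H2-Aa was at 43.6 and 56.4 CPM, where the erythroid and neutrophil gates had 38.7 to 113 CPM in Mg and 41.1 to 48.5 CPM in Mg-TAGelMA. Cd74 was at 53.0 and 134.3 CPM, where those gates had 62.6 to 202 CPM and 112.5 to 131.5 CPM. H2-Ab1, at 90.2 and 102.5 CPM, lay above the 84.8 and 43.4 CPM that were the highest values there. The Mg maxima of these 3 genes were those of mature neutrophils, where 2 of 192 cells carried 45.6% of the member UMIs. H2-Oa (28 and 9 UMIs) also lay above the erythroid and neutrophil gates in both libraries, and Ciita (7 UMIs) did in Mg-TAGelMA. H2-Ob, the β chain of H2-DO, stood apart most: it was at 38.0 and 70.7 CPM in pro-B cells and at most 17.4 CPM in the erythroid and neutrophil gates of either library. H2-Ob also had the smallest ratio from first to last stage of the 10 members, 10.8-fold (9.10 to 12.9) in Mg and 4.61-fold in Mg-TAGelMA.

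The members did not step up together. Between pro-B and small pre-B cells 2 of 5 measured members passed the size rule in Mg (7% of genes did), H2-Aa at 3.33-fold and Cd74 at 5.07-fold, and 1 of 5 did in Mg-TAGelMA (3.64% of genes), Cd74 at 2.80-fold. Between small pre-B and immature B cells 8 of 9 passed in each library, against 3.14% and 3.06% of genes. The step was led by H2-DMb2, one of the 2 H2-DM β chains, at 27.9-fold (15.9 to 52.8) and 18.4-fold, followed by Cd74 at 10.6-fold and 10.8-fold. H2-Ob was the member that changed least there, at 1.65-fold and 1.91-fold.

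In the last step, from immature to mature B cells, the classical chains led. H2-Aa was 8.02-fold higher in Mg and 3.24-fold in Mg-TAGelMA, H2-Eb1 6.51-fold and 3.70-fold, and H2-Ab1 5.62-fold and 2.74-fold. Cd74, which holds the chains after synthesis, was 2.92-fold higher in Mg. All 10 members passed in Mg (2.24% of genes did) and 4 in Mg-TAGelMA (1.28% of genes did), where H2-Ob at 2.85-fold was the fourth. The ratio of Cd74 to H2-Ab1 UMIs went from 0.588 and 1.31 in pro-B cells to 7.32 and 6.56 in immature and 3.80 and 4.68 in mature B cells.

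The levels behind these ratios run across the 4 stages in order. H2-Aa stood at 43.6, 145.1, 392 and 3147 CPM in Mg, and at 56.4, 109, 660 and 2141 CPM in Mg-TAGelMA. Cd74 (chr18, 60803848 to 60812652, plus strand) stood at 53.0, 269, 2841 and 8294 CPM in Mg, and at 134.3, 376, 4077 and 7974 CPM in Mg-TAGelMA. Both genes were higher at each stage than at the one before, in both libraries. H2-Ab1 stood at 90.2, 149, 388 and 2182 CPM in Mg, and at 102.5, 125.8, 622 and 1705 CPM in Mg-TAGelMA.

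Ciita, the transactivator, stood at 7.0, 19.2, 55.3 and 278.5 CPM in Mg, and at 7.17, 8.10, 38.1 and 100.1 CPM in Mg-TAGelMA. Its level in mature B cells differed more between the libraries than that of any other member. Sorted by how many of the 7 mature B markers a B lineage cell held, from 0 to 7, the summed members were 877, 1200, 1834, 4108, 10768, 17050, 19487 and 19303 CPM in Mg. The level was similar from 5 markers on. In clusters formed without the members, in place of gates, the ratio from first to last stage was 35.5 in Mg.

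**Figure D2:**
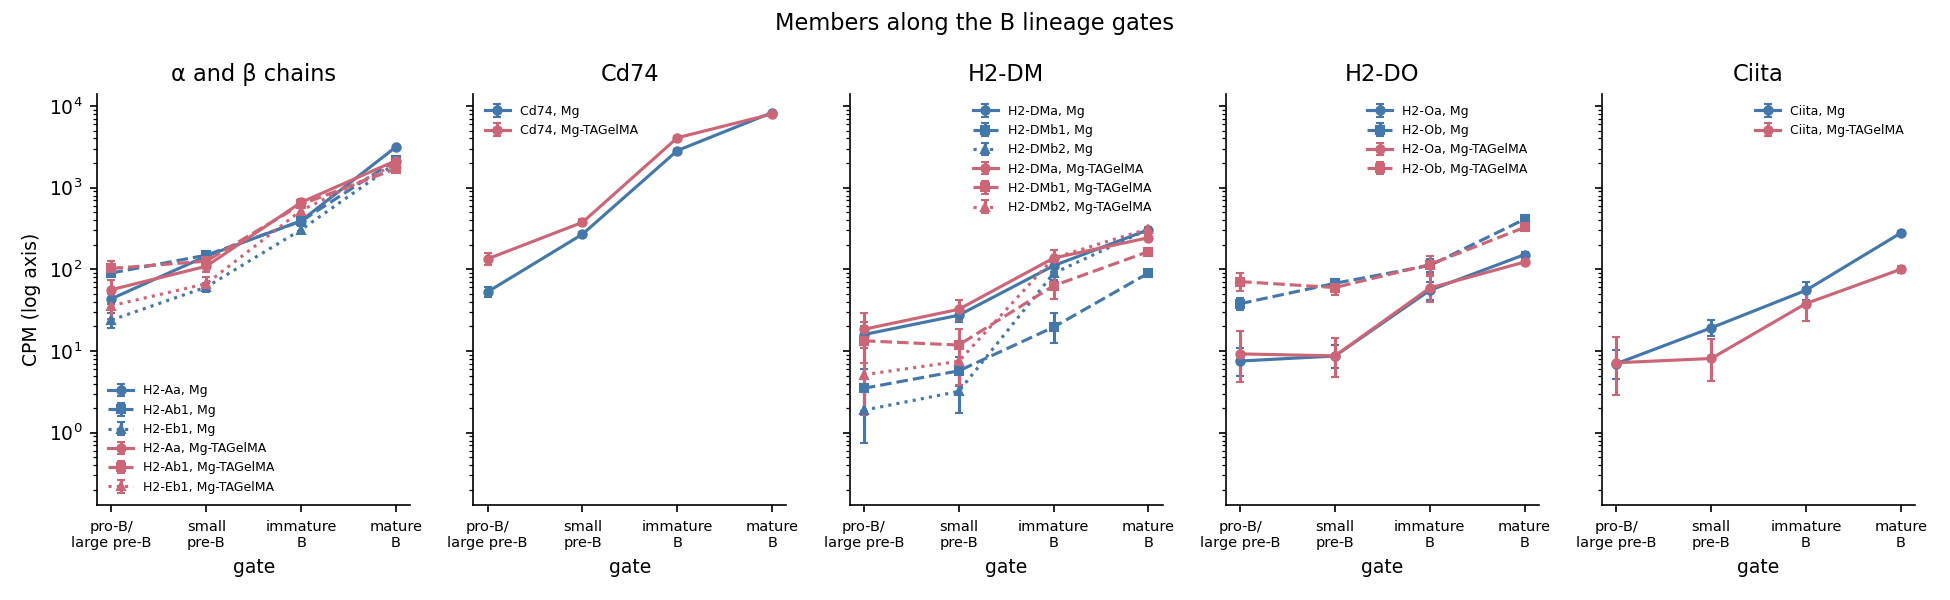
CPM of the members (logarithmic axis, bars are exact Poisson 95% intervals) in 4 B lineage gates, with both libraries in each of 5 panels. Cd74 reaches 2841 and 4077 CPM by the immature B gate, while H2-Aa is at 392 and 660 CPM there and 3147 and 2141 CPM in mature B cells.

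Plasma cells, the antibody-secreting end of the lineage, had little class II RNA apart from Cd74. The sum was 4.78-fold lower than in mature B cells in Mg and 7.15-fold lower in Mg-TAGelMA, and all 10 members were lower past the size rule in both. That count reads against a background of 21.3% and 53.8% of measured genes lower, and rests on 10 and 37 cells. Cd74 was 2.69-fold and 4.33-fold lower, while H2-Aa was 41.5-fold and 44.3-fold lower. The ratio of Cd74 to H2-Ab1 UMIs was 12.6 and 17.7, the highest of the 4 B stages and plasma cells. Ciita had 1 UMI in each library. In Mg, H2-DMb2 and H2-Oa were at 0 UMIs, which against a floor of 3 counts in the gate makes them at least 17.7-fold and 8.65-fold lower. Prdm1, a repressor known to shut off Ciita and one of the gate's own markers, was at 87.6 and 108.9 CPM in plasma cells and 1.84 and 10.5 CPM in mature B cells.

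Mature B cells and conventional dendritic cells expressed the classical chains and Cd74 at levels within a few fold of each other, but used different accessory chains. In Mg, H2-Ab1 was 2.23-fold, H2-DMa 2.24-fold and H2-DMb1 5.37-fold higher in dendritic cells, with 3 of 10 members higher past the size rule (11.5% of genes were). In Mg-TAGelMA only H2-DMb1 was, at 2.80-fold (13.4% of genes were). H2-DMb2, H2-Oa and H2-Ob were lower in dendritic cells in both libraries, 3 of 10 members against 9.01% and 11.6% of genes. H2-DMb2 was 13.6-fold lower (9.27 to 21.0) in Mg and 17.3-fold lower in Mg-TAGelMA. H2-Ob was 5.94-fold and 11.8-fold lower, and H2-Oa 2.63-fold and 3.29-fold lower. Against classical monocytes, 9 of 9 measured members in Mg (3.43% of genes) and 7 of 7 in Mg-TAGelMA (4.39% of genes) were higher in dendritic cells, with the sum 7.80-fold and 24.3-fold higher.

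The 2 H2-DM β chains, which are neighbours on chr17 and whose promoter windows are printed above, split by lineage. H2-DMb1 stood at 89.9 CPM (81.2 to 99.3) and 165 CPM (152 to 178) in mature B cells, and at 483 and 462 CPM in conventional dendritic cells. H2-DMb2 stood at 309.8 CPM (293 to 327) and 314 CPM in mature B cells, and at 22.7 CPM (14.8 to 33.3) and 18.2 CPM in conventional dendritic cells. Of UMIs assigned to either chain, H2-DMb1 took 22.5% (20.6 to 24.5) and 34.4% (32.2 to 36.7) in mature B cells and 95.5% and 96.2% in dendritic cells. The intervals of both lineages do not overlap in either library.

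Monocytes and plasmacytoid dendritic cells also had more H2-DMb1 than H2-DMb2. Classical monocytes gave H2-DMb1 90.5% and 86.6% of the pair, and the ratio of H2-DMb1 to H2-DMb2 UMIs was 9.57 (6.75 to 14) and 6.44 (5.06 to 8.28). Plasmacytoid dendritic cells had a ratio of 4.86 and 12.1, and stem and progenitor cells 14.5 (3.67 to 125) and 3.58. Macrophages held 1 and 0 UMIs of H2-DMb2, and nonclassical monocytes 0 and 0. Neutrophils did not share that pattern, with 0.662 (0.448 to 0.970) and 1.15 (0.880 to 1.51) in immature neutrophils and 53 against 41 UMIs in mature neutrophils of Mg-TAGelMA. Erythroid cells had 1.33 and 1.65. Over the last 500 bases of their transcripts, where 3′ reads fall, 20.4% of the 451 50-base words of H2-DMb1 also occur in H2-DMb2, while 0 of the 457 such words of H2-DMb2 occur in H2-DMb1. Reads of the shared words cannot be assigned by sequence, so the H2-DMb1 level is uncertain. How such reads were counted is not given in the sources used here.

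H2-DO, the restraining dimer, was higher relative to H2-DMa in mature B cells than in dendritic cells and monocytes. The ratio of H2-Ob to H2-DMa UMIs was 1.34 (1.25 to 1.44) and 1.34 (1.23 to 1.46) in mature B cells, 2.39 and 3.83 in pro-B cells, 0.101 and 0.0577 in conventional dendritic cells and 0.0439 and 0.0469 in classical monocytes. H2-Oa to H2-DMa gave 0.497 and 0.504 in mature B cells and 0.0845 and 0.0775 in conventional dendritic cells. H2-DO chain RNA was not limited to B cells: T cells of Mg had 83 H2-Ob and 78 H2-DMa UMIs, a ratio of 1.06 (0.772 to 1.47), against 0.317 in Mg-TAGelMA. Basophils and mast cells of Mg-TAGelMA had a ratio of H2-Oa to H2-DMa of 2.67 (1.59 to 4.64). Plasmacytoid dendritic cells differed between the chains, with 44.3 and 34.5 CPM of H2-Oa and 2.95 CPM (1 UMI) and 9.49 CPM of H2-Ob.

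**Figure D3:**
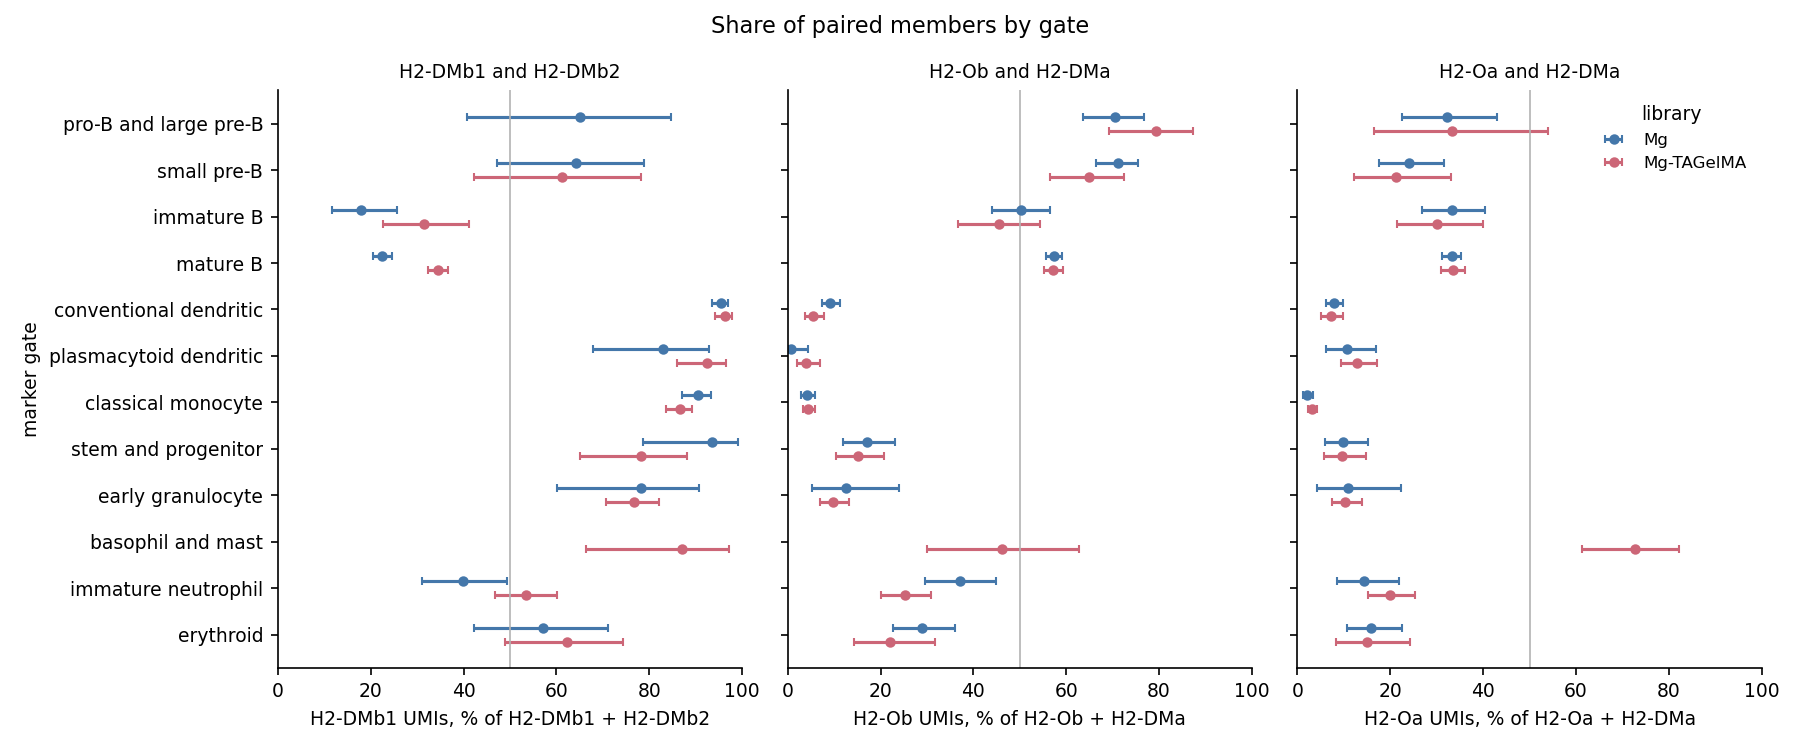
Share of UMIs (percent, with Clopper-Pearson 95% bars, grey line at 50%) taken by the first gene of each pair in 12 gates and both libraries: H2-DMb1 with H2-DMb2, H2-Oa with H2-DMa, and H2-Ob with H2-DMa. H2-DMb1 takes 22.5% and 34.4% in mature B cells and 95.5% and 96.2% in conventional dendritic cells.

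Outside these lineages a few single members stood above their level in the erythroid and neutrophil gates. H2-DMa, the H2-DM α chain, was at 142 CPM (121 to 166) and 106.9 CPM (91.4 to 124) in stem and progenitor cells, which was 12.3-fold (9.69 to 15.6) and 5.92-fold (4.48 to 7.90) above erythroid cells. It was the 1 member past the size rule there, of 4 and 3 measured (17.6% and 15.8% of genes were). Brd2, on the opposite strand and overlapping H2-DMa, stood at 174 and 128 CPM in those cells, and its reads cannot be told apart from those of H2-DMa where the counting does not use strand, which is not stated. H2-Oa was at 120.1 CPM (62.1 to 210; 12 UMIs) and 78.7 CPM (59.5 to 102; 56 UMIs) in basophils and mast cells (17 and 65 cells), and at most 4.35 CPM in the erythroid and neutrophil gates. The antisense gene of H2-Oa, BC051537, was at 2.81 CPM in basophils of Mg-TAGelMA.

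Among cells of 1 gate, class II RNA was spread evenly in mature B cells and less so elsewhere. Per 10000 UMIs of a cell, mature B cells held a median of 202.7 and 169.0 member UMIs, with a 10th percentile of 89.6 and 82.9 and a 90th of 277 and 249.8. Conventional dendritic cells had a median of 239.7 and 190.7, with quartiles of 20.3 and 469 in Mg and 13.3 and 368 in Mg-TAGelMA. Their gate held cells with much and with little class II RNA, and 0 cells with none: 65 of 87 (74.7%) and 52 of 71 (73.2%) reached 20 per 10000. The cells under 20 carried 2401 and 1937 CPM of plasmacytoid dendritic markers, against 665 and 740.0 CPM in the others. They also carried more classical monocyte markers, at 4602 and 4549 CPM against 3469 and 3214 CPM. In Mg they had fewer of the gate's own markers, at 1032 against 1984 CPM.

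Classical monocytes mostly held few member UMIs, with a median of 5.52 and 3.99 per 10000. A minority held many, up to 789.8 and 541.4, and the top 10% of cells carried 80.5% and 54.3% of the gate's member UMIs. In mature B cells the top 10% carried 18.1% and 17.2%, in conventional dendritic cells 26.4% and 26.5%, in immature B cells 42.7% and 32.1%, and in small pre-B cells 43.7% and 48.5%. At least 20 per 10000 was reached by 53 of 331 classical monocytes (16.0%, 12.2 to 20.4) in Mg and 36 of 625 (5.76%, 4.07 to 7.89) in Mg-TAGelMA, and these cells carried 85.3% and 46.1% of the gate's class II RNA. Mature neutrophils reached that level in 2 of 192 (1.04%) and 4 of 1842 cells (0.217%).

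**Figure D4:**
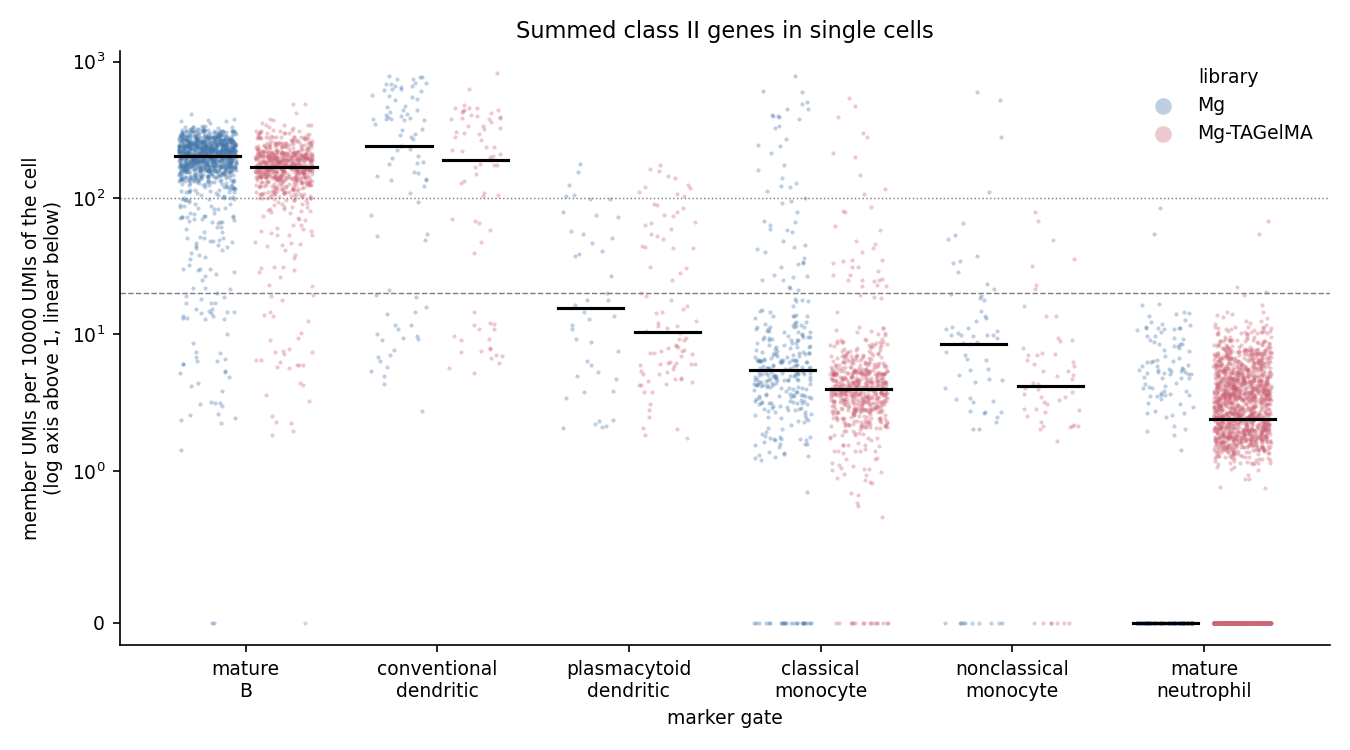
Member UMIs per 10000 UMIs of each cell (axis linear below 1 and logarithmic above, black line the median, dashed line 20, dotted line 100) in 6 gates of both libraries. Classical monocytes have a median of 5.52 and 3.99 with a tail to 789.8 and 541.4.

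The class II-bearing monocytes also differed in markers of other cells and in the classical monocyte markers that define the gate. In Mg, cells at or over 20 per 10000 held 318 CPM of the 10 conventional dendritic markers against 185 CPM below, and in Mg-TAGelMA 325 against 174 CPM. Macrophage markers stood at 360.3 against 28.3 CPM and 265 against 26.6 CPM, while classical monocyte markers stood at 8791 against 10273 CPM and 7224 against 8579.5 CPM. Among the dendritic markers Clec10a, a lectin, was at 119 against 32.7 CPM in Mg and Wdfy4, a cross-presentation factor, at 49.0 against 65.0 CPM, while Xcr1, Clec9a and Zbtb46 had 0 UMIs in the Mg cells at or over 20. Markers of the B lineage were at 516 against 294 CPM and 346 against 253 CPM, and those of mature B cells at 516 against 651 CPM and 235 against 383 CPM. The part that dendritic cells, macrophages or B cells play in these values was not tested.

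Between the libraries, the 2 monocyte gates had less class II RNA in Mg-TAGelMA, and no other gate had more than 1 member past the size rule. Classical monocytes stood at 3274 CPM (3209 to 3339) in Mg and 743 CPM (727 to 760.2) in Mg-TAGelMA, 4.40-fold lower (4.27 to 4.54). All 6 measured members were lower past the rule, against 1.5% of genes lower and 13.2% higher. Their median log2 ratio was -2.26, beside 0.13 for all genes measured.

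By member, H2-Aa stood at 615.5 CPM (588 to 644) and 92.5 CPM (86.7 to 98.6) in classical monocytes, 6.65-fold lower (6.15 to 7.21). H2-Ab1 was 6.79-fold lower (6.23 to 7.42), H2-Eb1 5.60-fold and Cd74 4.11-fold lower. Among the 6 measured members the classical chains differed most. H2-DMa, 2.22-fold lower (2.02 to 2.45), and H2-DMb1, 2.30-fold lower (2.0 to 2.65), differed least of the 6. H2-DMb2, H2-Oa and H2-Ob were under 50 CPM in both libraries and are not ranked. Ciita stood at 28.6 and 3.11 CPM (85 and 32 UMIs), 9.17-fold lower (6.04 to 14.2), but under the 50 CPM the rule asks for.

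Nonclassical monocytes, the patrolling subset with Cx3cr1 and Treml4, stood at 4795 and 797.5 CPM, 6.01-fold lower (5.28 to 6.86). Of 6 measured members 4 were lower past the rule, against 1.06% of genes lower and 13.1% higher. H2-Aa was 18.9-fold (11.4 to 33.4), H2-Ab1 16.4-fold (9.75 to 29.8), H2-Eb1 13.7-fold (8.47 to 23.5) and Cd74 3.91-fold (3.34 to 4.61) lower. These gates held only 68 and 58 cells, and 4 cells of Mg at or over 100 per 10000 carried 75.9% of its member UMIs. No cell of the 58 in Mg-TAGelMA reached 100, which allows a share of up to 6.16% (exact 95% bound). The nonclassical gate also differed in its markers between the libraries. Its own markers stood at 2525 CPM in Mg and 3537 CPM in Mg-TAGelMA, and classical monocyte markers at 3608 and 2557 CPM. The nonclassical cluster formed without the members held 0 cells of Mg and 68 of Mg-TAGelMA. The part of gate placement in the nonclassical difference was not tested.

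Much of the monocyte difference lay in that minority of cells. Without the top 10% of cells in each library, classical monocytes stood at 724 and 393 CPM, a ratio of 0.543 against 0.227 with all cells, and nonclassical monocytes at 894 and 486 CPM, a ratio of 0.544 against 0.166. The ratio of the medians over cells was 0.724 and 0.492. Among classical monocytes with 0 conventional dendritic markers (102 and 91 cells) the sum was 2082 and 1108 CPM, a ratio of 0.532. With 1 marker it was 1219.6 and 541 CPM, with 2 markers 3788 and 530.5 CPM, and with 3 markers 9574 and 1866 CPM. These views were chosen after the data had been seen. With all cells thinned to 1000 UMIs, 51.9% of 324 (46.3 to 57.4) and 37.3% of 617 (33.4 to 41.2) classical monocytes held a member UMI, against 92.7% and 97.4% unthinned (median 8104 and 13408 UMIs).

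Markers of other cells in the classical monocyte gate differed between the libraries as well. The summed conventional dendritic markers stood at 206 CPM in Mg (8 of 10 detected, Xcr1 and Zbtb46 at 0) and 179 CPM in Mg-TAGelMA (10 of 10), against 1705 and 1423 CPM in the conventional dendritic gate. Macrophage markers were at 80.7 and 35 CPM (9 of 9 detected in Mg and 8 of 9 in Mg-TAGelMA, Cd5l at 0), mature B markers at 629.9 and 378 CPM, and the gate's own markers at 10039 and 8531 CPM. The cells 1 marker short of the gate numbered 375 and 1172. In clusters formed without the members the ratio of the sum was 0.437, between a cluster of 586 Mg and 4 Mg-TAGelMA cells and one of 0 and 543 cells. The part of gate placement and of other cells in the monocyte difference was not tested.

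**Figure D5:**
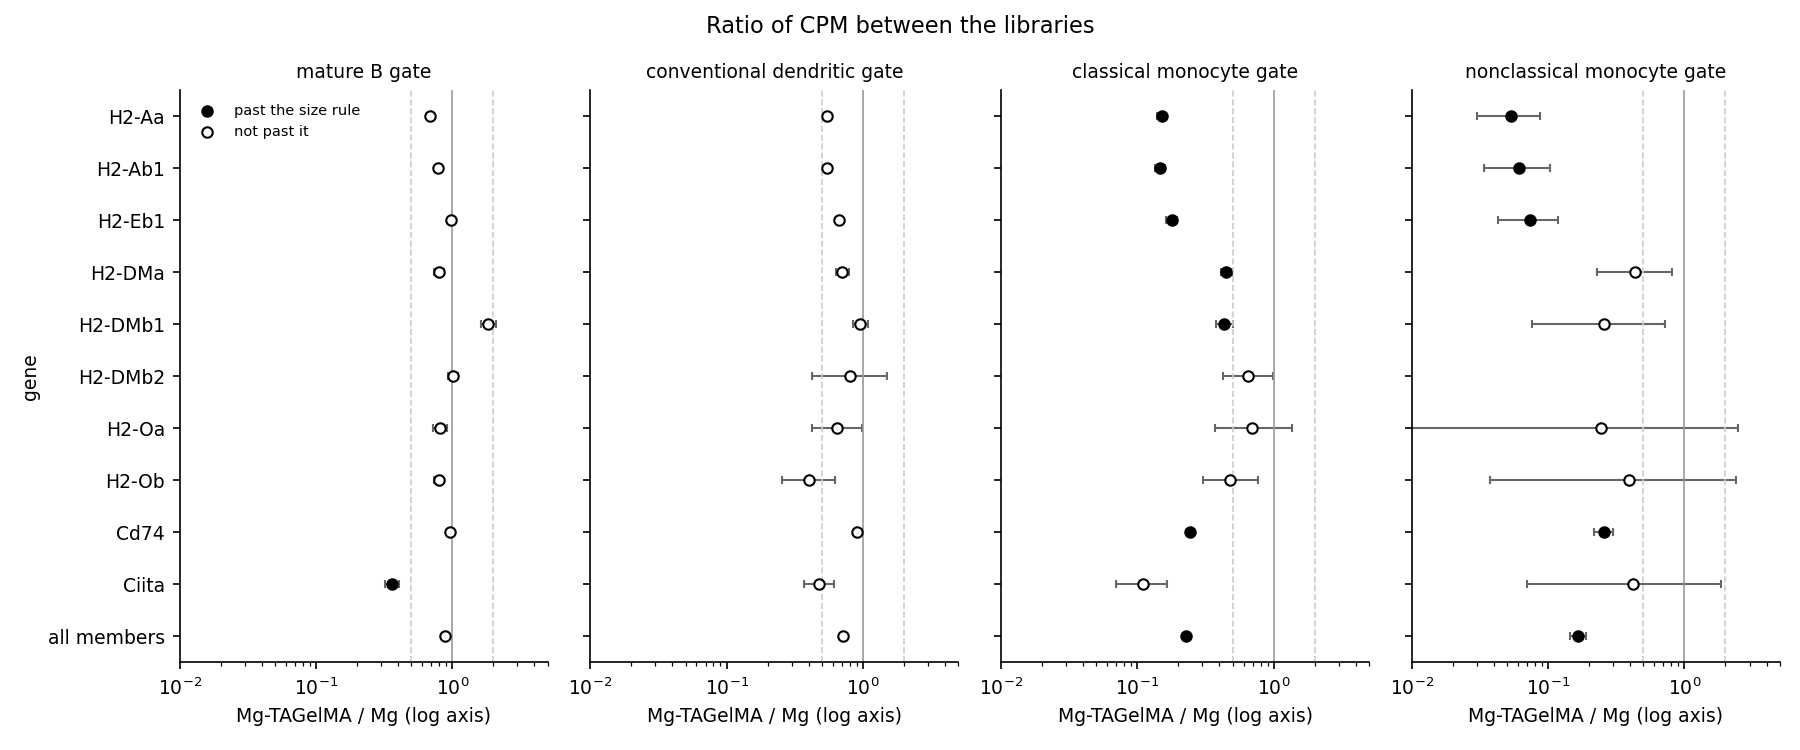
Ratio of CPM in Mg-TAGelMA to Mg for each member with 95% counting intervals in 4 gates (logarithmic axis, dashed lines at 2-fold either way, filled points past the size rule, and the H2-Oa interval in nonclassical monocytes runs past the axis). H2-Aa is 6.65-fold lower in classical and 18.9-fold lower in nonclassical monocytes (16 UMIs in Mg-TAGelMA). Ciita at 2.78-fold lower is the filled point among mature B cells.

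Scaled by total UMIs, mature B cells kept every member but Ciita within 2-fold between the libraries. Ciita stood at 278.5 CPM (263 to 295) in Mg and 100.1 CPM (90.2 to 110.8) in Mg-TAGelMA, 2.78-fold lower (2.47 to 3.13). It was the 1 of 10 members lower past the rule (3.42% of genes were), and 0 were higher (21.5% of genes were). H2-DMb1 was 1.83-fold higher (1.61 to 2.09) and H2-Aa 1.47-fold lower. The sum was 1.14-fold lower (1.13 to 1.15), but that direction turned when only genes with at most 8 kb of intron made up the total, which gave a ratio of 1.22. Under that total Ciita had a ratio of 0.502, H2-Aa 0.951 and Cd74 1.34. The change of total multiplies the ratio of every member by the same factor, which takes H2-DMb1 past 2-fold. Of the genes that overlap a member, Gm20513, antisense to H2-Eb1, stood at 4.60 and 62.6 CPM and Dexi, next to Ciita, at 20.5 and 31.0 CPM in mature B cells. Ciita has 38.8 kb of intron and H2-Aa 1.28 kb, and whether reads in introns were counted is not given in the sources used here.

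Conventional dendritic cells had 0 of 9 measured members past the rule in either direction (14.9% of genes were higher and 0.926% lower). The sum was 1.41-fold lower (1.39 to 1.44) in Mg-TAGelMA, with Ciita at 182 and 86.1 CPM, 2.11-fold lower (1.64 to 2.73). H2-Aa was 1.84-fold and H2-Ob 2.49-fold (1.61 to 3.95) lower. The intervals of Ciita and H2-Ob reach below 2-fold, so neither passed.

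Pro-B and immature B cells lay on the other side. The sum in Mg-TAGelMA was 1.59 times that in Mg in pro-B cells and 1.47 times in immature B cells. In small pre-B cells between them, the 5 measured members had a median log2 ratio of -0.17. Immature B cells at or over 100 member UMIs per 10000 made up 14.7% of that gate in Mg and 30.5% in Mg-TAGelMA. Cd74 was 2.53-fold higher (2.01 to 3.17) in pro-B cells, the 1 of 4 measured members past the rule (19.1% of genes were higher and 2.01% lower). That call was lost with TMM or median-ratio scaling, without the rRNA genes, with thinned cells and at 3-fold. Cd74 in pro-B cells lay close to the erythroid and neutrophil gates, which together held 70.2 CPM of it in Mg and 120.4 CPM in Mg-TAGelMA. Immature B cells had 0 of 10 past the rule (15% of genes higher, 1.08% lower) and small pre-B cells 0 of 5 (16.7% higher, 2.17% lower). In the other 6 gates compared no member passed in either direction. The genes past the rule there were 14.2% higher and 0.903% lower in stem and progenitor cells, 7.84% and 2.8% in early granulocytes, and 9.41% and 4.84% in immature neutrophils. They were 10.2% and 7.97% in mature neutrophils, 14.9% and 1.68% in erythroid cells and 20.5% and 1.74% in T cells. Over all 13 gates compared, 12 member values passed, 11 lower and 1 higher in Mg-TAGelMA.

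The wider antigen presentation pathway, 43 genes in 8 lists, had more genes higher than lower in Mg-TAGelMA, as did all measured genes, so the counts are read against the share of all genes. In classical monocytes 5 of 29 measured pathway genes were higher in Mg-TAGelMA past the rule (13.2% of all genes were) and 0 lower (1.5%). Cd86, the costimulatory ligand of CD28, stood at 50.4 and 555 CPM, an 11.0-fold ratio. Cd80, its relative, was 10.9-fold higher, and March1, a ligase that removes class II and Cd86 from the surface, 3.24-fold higher. In nonclassical monocytes 9 of 31 were higher (13.1% of all genes) and 0 lower (1.06%), with Cd86 at 24.2-fold, Cd83 at 7.87-fold and Nlrc5, the class I transactivator, at 29.5-fold from 1 UMI in Mg. The lysosomal proteases and reductase that prepare antigen had 0 of 8 past the rule in classical monocytes, where Ctss, the protease that cleaves the invariant chain, stood at 1139 and 675 CPM.

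Mature B cells had 9 of 34 pathway genes higher (21.5% of all genes) and 2 lower (3.42%). Cd86 stood at 29.7 and 814 CPM (27.4-fold, 23.0 to 33.0), Cd83, which protects class II from March1, at 46.2 and 417 CPM (9.02-fold), and the NF-Y subunit Nfyc was 4.34-fold higher. Icosl, the ligand of ICOS, was 3.37-fold lower and the NF-Y subunit Nfyb 2.82-fold lower. Cd86 was higher in each of these gates. It has 58.6 kb of intron, Cd80 37.1 kb, Cd83 15.8 kb, Nfyc 71.2 kb and March1 847 kb, and the part of intron counting in their ratios was not tested.

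In conventional dendritic cells 6 of 31 were higher (14.9% of all genes) and 1 lower (0.926%). Cd86 stood at 44.6 and 803 CPM (18-fold), Cd83 was 9.97-fold higher, and Cd80 was 52.6-fold higher (14.2 to 440) from 2 UMIs in Mg. Irf8, a transcription factor of dendritic cell development, stood at 1447 and 655 CPM, 2.21-fold lower. Immature B cells had 8 of 33 higher (15% of all genes), led by Cd86 at 23.3-fold, Cd83 at 9.52-fold and Nfyc at 3.32-fold, and 0 lower. Small pre-B cells had 3 of 26 higher (16.7% of all genes), which were Irf1 at 3.44-fold, Nfyc at 3.01-fold and Cxcr4 at 2.21-fold. Pro-B cells had 3 of 25 higher (19.1% of all genes), which were Nlrc5 at 6.48-fold, Irf1 at 5.32-fold and Nfyc at 3.29-fold, and 1 lower, the Cd74 ligand Mif at 3.96-fold.

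Gates with little class II RNA showed pathway differences as well. Erythroid cells had 3 of 18 higher (14.9% of all genes), among them the interferon-response factor Irf1 at 50.4-fold and Nfyc at 2.37-fold. Stem and progenitor cells had 3 of 22 (14.2%): Cd86 at 47.9-fold from 2 UMIs in Mg, Irf1 at 3.12-fold and Irf8 at 3.03-fold. Early granulocytes had 3 of 20 (7.84%): Irf1 at 4.29-fold, Irf8 at 3.99-fold and Mif at 3.09-fold. Mature neutrophils had 2 of 24 (10.2%): Cd86 at 46.5-fold from 1 UMI in Mg and Cd80 at 10.5-fold. Among T cells 7 of 22 were higher (20.5%), led by Cd86 at 5.69-fold, Nfyc at 3.92-fold and Irf1 at 3.03-fold. In immature neutrophils 1 of 20 was higher (9.41%), March1 at 3.65-fold, and 1 lower (4.84%), Nfya at 3.06-fold. Other class II genes were low throughout: H2-Eb2 stood at 55.0 and 60.2 CPM in mature B cells.

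The genes whose levels followed the summed members most closely were named by Pearson's r of log2(CPM + 10) over 29 profiles of gate and library, among 7511 genes. These were Fgd2 (0.896), Cd180 (0.876), Rnase6 (0.873), Btla (0.870), Ly86 (0.862), Kmo (0.827), Calhm2 (0.825), Ifi30 (0.823), Slc15a4 (0.817) and Plekho1 (0.802). Rnase6 is itself a plasmacytoid dendritic marker. The members lay at 0.989 for Cd74, 0.983 for H2-Eb1, 0.982 for H2-Aa, 0.980 for H2-Ab1, 0.931 for Ciita, 0.887 for H2-DMb1 and 0.877 for H2-DMa, with each being part of the sum. H2-Oa (0.762), H2-DMb2 (0.711) and H2-Ob (0.663) followed it least. Profiles of 1 library share depth and free RNA, so these values describe the 2 libraries.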

How the data were processed

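Raw UMI counts per gene and cell barcode, deposited by the authors for 2 libraries (10x Chromium 3′ v3), were made with Cell Ranger 5.0.0 (Mg) and 7.0.1 (Mg-TAGelMA), per the file headers, and with STAR on mm10, per the submitters' processing notes. Intron counting, strand use and aligner settings are not given in the sources used here. The barcode and gene tables carry no measured values. Cells under 200 detected genes (189 and 22) or over 15% mitochondrial UMIs (1091 and 62) were removed, as were 197 and 297 doublets called by Scrublet (2.37% and 3.95% of the remaining cells) in scanpy 1.11.5. No barcode had under 500 UMIs.

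Gates were set per cell from marker counts, a minimum share of UMIs and, for B stages, single genes detected or not, and 20 gates resulted. UMIs were summed per gate and library and divided by the gate's total (CPM), with exact Poisson intervals, exact conditional binomial intervals for ratios and Clopper-Pearson intervals for shares (scipy 1.17.1). Gates with at least 50 cells in both libraries were compared. A gene counts as measured where it has at least 50 CPM on 1 side. With 1 library per group no test across samples exists, and p-values are not given. All 10 members enter the sum of every gate, while the text names only some of them in most gates. In each gate compared, up to 3 pathway genes per direction with the largest ratio past the size rule are named, and the 10 genes most like the summed members by Pearson's r. A gene that this rule selects in erythroid cells is not reported here. The members, markers and pathway lists were chosen with earlier results of these data known.

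The size rule was run on simulated sums with counting error only, which is what its intervals assume. Of 200 genes changed by 4-fold, 100% were recovered with mature B and classical monocyte totals and 78% with nonclassical monocyte totals. Of unchanged genes 0 were called. Variation between cells or libraries was not simulated, so these values do not give the error rate of the rule in the real libraries. Gene models matched 32235 of 32285 gene rows (99.8%). Alternatives covered cell filters, doublets, gates, clusters, depth and scaling, where TMM (edgeR 4.0.16) and median-ratio factors (DESeq2 1.42.0, R 4.3.3) replaced the total. TMM moved the median log2 ratio of all genes by over 0.1 in erythroid (-0.49), mature neutrophil (0.38), pro-B (-0.32), small pre-B (-0.14), immature neutrophil (0.12) and T (-0.10) gates.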

Additional observations from a re-analysis of the deposited data

Results flagged for a closer look

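Cd74 differed between the libraries in opposite directions by cell type. Its ratio of CPM in Mg-TAGelMA to Mg was 2.53 in pro-B and large pre-B cells, where it was past the size rule as higher. The same ratio was 0.244 in classical monocytes and 0.255 in nonclassical monocytes, where Cd74 was past the rule as lower. With 1 library per nail the difference between these cell types was not tested, and the call in pro-B cells was lost under several scalings.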

How the results depend on the processing

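No paired analysis was possible because each group is 1 library, and leaving out a replicate was not possible for the same reason. Of 377 member ratios under the alternatives 355 kept their direction, and of 109 for called members 109 kept it and 96 stayed past the size rule. For the summed members in mature B cells (17158 CPM in Mg, 15031 CPM in Mg-TAGelMA), the alternatives gave, in that order, 16823 and 14571 with doublets kept, 18720.3 and 15490.3 with 1 more marker per gate, 21157 and 18301 with gates on thinned cells, 20144 and 17434 with clusters, 19493 and 16904 with all cells thinned, and 28666 and 35103 with genes of at most 8 kb of intron as the total. Without the rRNA genes Mg gave 18538. The ratio from pro-B to mature B cells (60.3 and 33.2) was 42.2 in Mg with gates on thinned cells, 35.5 and 25.4 with clusters, and, in Mg-TAGelMA, 40.1 with 1 more marker and 37.3 with all cells thinned. The ratio of Mg-TAGelMA to Mg in mature B cells (0.876) was 0.866 with doublets kept, 0.827 with 1 more marker, 0.865 with gates on thinned cells, 0.865 with clusters, 0.834 with TMM, 0.831 with median-ratio factors, 0.812 without the rRNA genes, 1.22 with genes of at most 8 kb of intron, which turned its direction, and 0.834 for the median over cells. In conventional dendritic cells (0.708) it was 0.781 with 1 more marker, 0.676 without the rRNA genes, 0.871 with short-intron genes, 0.796 for the median over cells and 0.684 without the top 10% of cells. In classical monocytes (0.227) it was 0.234 without the mitochondrial filter, 0.202 with 1 more marker, 0.262 with gates on thinned cells, 0.437 with clusters, 0.240 with all cells thinned, 0.219 with TMM, 0.219 with median-ratio factors, 0.207 without the rRNA genes, 0.272 with short-intron genes, 0.724 for the median over cells, 0.532 for cells with 0 dendritic markers and 0.543 without the top 10% of cells. In nonclassical monocytes (0.166) it was 0.296 with all cells thinned, 0.244 with short-intron genes, 0.492 for the median over cells and 0.544 without the top 10% of cells. The 12 member values past the size rule became 6 with clusters and 7 with all cells thinned. With clusters the nonclassical monocytes, which held 4 of the 12, had no value and could not be counted. With short-intron genes as the total the values past the rule were 4 higher and 8 lower, against 1 higher and 11 lower. Apart from gates without a value, the causes of these shifts were not tested. No value could be had with gates on thinned cells for the B lineage ratio of Mg-TAGelMA and for the dendritic and nonclassical gates, with clusters for the same 2 gates, and with 1 more marker for nonclassical monocytes. The median over cells, the cells with 0 dendritic markers and the top 10% were added after the data had been seen. Depth limits the rarest gates, where single members rest on a few UMIs.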
